A study of Mus musculus with 4 samples.

Results

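Genes of precursor, immature and transitional B cells were followed in RNA from sorted splenic follicular B (FOB) cells, the recirculating mature B cells of the follicle. The 10 genes were Cd93, Sox4, Myb, Vpreb3, Rag1, Rag2, Dntt, Igll1, Vpreb1 and Cd24a, found by symbol among the 55401 genes of the count table. All 10 were present there with 1 entry each. The list follows the stages of B cell development, but it was drawn up with results of these data known. It is therefore treated as selected on the log2 fold changes of Hnrnpf bKO against WT, and the genotype differences of these 10 genes are given as a description.

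The WT libraries came from Hnrnpf fl/fl mice, which carry the floxed alleles without Cre, and the Hnrnpf bKO libraries (labelled HFKO) from Hnrnpf fl/fl mice with 1 copy of a B cell Cre, which deletes Hnrnpf, the gene of a splicing regulator that binds G-rich RNA. All mice were on the C57BL/6 background, the labels give an age of 7 weeks, and no treatment is named. Each genotype had 2 libraries. The cells were sorted as B220+, CD93-, CD23 high and CD21 low, so that CD93, the surface marker of transitional B cells and a product of the list, was itself used to remove cells. WT mice lacked the Cre allele, so loss of Hnrnpf and the presence of that allele cannot be told apart here. Nothing in the labels says whether the 2 libraries of a genotype came from separate mice or from pools, and the p-values therefore measure only the spread between these libraries, which may be technical.

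In the bone marrow, RAG1 and RAG2 cut the immunoglobulin genes, and terminal transferase (Dntt) adds bases at the heavy chain joints. The new heavy chain is first tested at the surface with a surrogate light chain made of VpreB1 and lambda 5 (Igll1), and the surrogate light chain genes are shut down after this test, while the RAG genes are used again to make the light chain. Immature B cells then leave for the spleen, where transitional cells still carry CD93 and much CD24 and lose them as they mature into FOB cells.

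The libraries held between 15698567 and 18908963 counts, and between 19869 and 20317 genes had at least 1 count. Hnrnpf had 353 and 351 CPM (counts scaled to the library total) in WT against 74.3 and 66.1 CPM in Hnrnpf bKO, with a fitted level of 20.1% of WT. The 11 genes listed for mature FOB cells were all among the tested genes, and their summed level lay between 13065 and 13620 CPM in the 4 libraries.

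Levels of different genes were compared in the authors' FPKM, which divide counts by gene length and library total. The list fell into 3 tiers. Cd24a and Vpreb3 were abundant, Sox4, Cd93 and Myb were low, and the recombination and surrogate light chain genes were at or near 0. The tiers did not overlap in any library. The tested genes below Cd24a in mean FPKM made up 97.9%, those below Vpreb3 95.8%, those below Sox4 34.4%, those below Cd93 28.9% and those below Myb 20.3%.

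**Figure D1:**
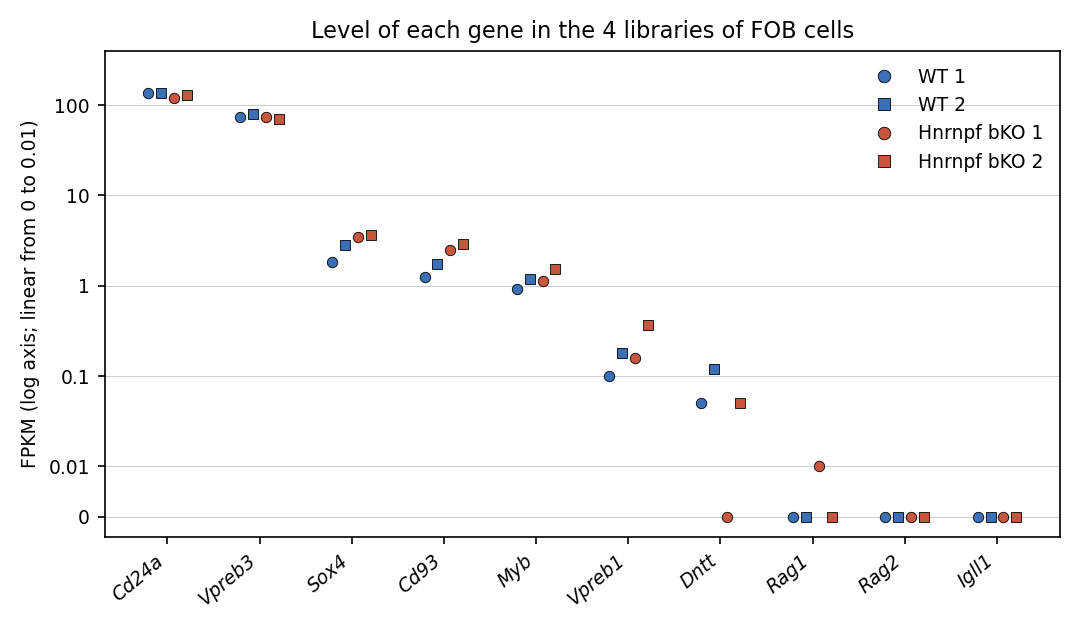
FPKM of the 10 genes in each library, on an axis that is logarithmic above 0.01 and linear from 0 to 0.01, with circles for replicate 1 and squares for replicate 2 of each genotype. Cd24a (120 to 137) and Vpreb3 (69.6 to 80.4) stand far above Sox4, Cd93 and Myb (0.92 to 3.68), and Rag2 and Igll1 are at 0 in all 4 libraries.

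Promoters of 8 of the 10 genes were found by symbol in the RefSeq sequences of GRCm38.p6, each running from 250 bases before to 50 bases after the start that RefSeq gives. For Vpreb3 and Vpreb1 that start lies inside the longer gene span of the annotation used for the gene coordinates here, so these promoters are not at the ends of those spans. Those of the surrogate light chain family are printed because its members stood at opposite ends of the order of levels. That of Sox4 is printed because it was the highest of the low genes, and for its fitted genotype difference, which is given only as a description. Capitals mark matches on either strand to the motifs searched. These were the E-box CAGCTG and the E-box CAGGTG, sites of E proteins such as that of Tcf3, the RUNX motif TGTGGT, the FOXO motif GTAAACA, the TATA box as TATAAA and the palindromic EBF1 motif. Vpreb3 is at chr10:75948050-75948349 on the plus strand, Igll1 at chr16:16863936-16864235, Vpreb1 at chr16:16869206-16869505 and Sox4 at chr13:28953650-28953949, all 3 on the minus strand.
Vpreb3: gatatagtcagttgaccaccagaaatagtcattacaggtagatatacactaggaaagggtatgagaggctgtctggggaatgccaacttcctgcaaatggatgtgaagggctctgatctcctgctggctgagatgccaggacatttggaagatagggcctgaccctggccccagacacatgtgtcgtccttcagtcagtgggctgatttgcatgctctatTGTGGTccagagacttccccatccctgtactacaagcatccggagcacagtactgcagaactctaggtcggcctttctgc
Igll1: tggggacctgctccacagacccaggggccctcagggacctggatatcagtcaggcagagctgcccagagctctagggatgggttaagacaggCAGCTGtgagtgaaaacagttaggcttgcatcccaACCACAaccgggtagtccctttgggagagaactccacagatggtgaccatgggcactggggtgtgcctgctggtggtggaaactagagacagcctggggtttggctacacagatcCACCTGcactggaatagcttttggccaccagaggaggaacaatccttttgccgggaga
Vpreb1: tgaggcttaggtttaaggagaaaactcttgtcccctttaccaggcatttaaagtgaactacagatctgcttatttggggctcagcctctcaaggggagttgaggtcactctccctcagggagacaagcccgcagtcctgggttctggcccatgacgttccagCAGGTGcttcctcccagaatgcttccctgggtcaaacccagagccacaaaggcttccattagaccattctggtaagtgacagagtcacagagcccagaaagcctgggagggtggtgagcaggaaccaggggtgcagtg
Sox4: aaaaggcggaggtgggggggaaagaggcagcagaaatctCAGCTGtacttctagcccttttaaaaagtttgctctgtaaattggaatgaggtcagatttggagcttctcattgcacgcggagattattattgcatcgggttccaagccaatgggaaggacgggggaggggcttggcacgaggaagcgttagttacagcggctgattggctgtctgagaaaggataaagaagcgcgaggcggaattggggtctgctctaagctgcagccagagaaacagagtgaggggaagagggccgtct

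Across the 8 promoters, the E-box CAGCTG occurred in 3 (Igll1, Rag1 and Sox4), the E-box CAGGTG in 3 (Igll1, Rag1 and Vpreb1), the RUNX motif in 3 (Igll1, Rag1 and Vpreb3) and the FOXO motif in 1 (Myb), while the TATA box and the EBF1 motif occurred in 0. Over the 32544 promoters of the same length, these motifs were found in 16.4%, 20.3%, 16.7%, 3.66%, 13.6% and 0.913%, in the same order. The 6 motifs do not overlap each other in the printed promoters. The promoters of Rag1, Rag2, Dntt, Igll1, Vpreb1 and Vpreb3 held 2 or 3 CpG dinucleotides, against a median of 7 over all promoters. Sox4 held 12 and Myb 40. Few CpG were thus shared by silent genes of the list and by the abundant Vpreb3.

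Cd24a encodes the small lipid-anchored glycoprotein CD24, high on precursor and transitional B cells and kept at a lower level by mature ones. The gene (ENSMUSG00000047139) lies on chromosome 10 of GRCm38 from 43578284 to 43584265. Its FPKM were 136 and 137 in WT against 120 and 130 in Hnrnpf bKO. Both Hnrnpf bKO libraries lay below both WT libraries. In CPM the level was 352 ± 1.29 in WT against 322 ± 17.2 in Hnrnpf bKO (mean ± SD, n = 2 each), and the fitted log2 fold change was -0.11 (standard error 0.05, 95% interval from -0.23 to 0.00). The Cd24a transcript shares stretches of at least 90% identity with the pseudogenes Gm6212 and Gm15352, which had at most 5 counts in a library against 4866 to 6664 for Cd24a.

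Vpreb3 encodes a protein that resembles VpreB1 but stays inside the cell and is made through many B cell stages. The gene (ENSMUSG00000000903, chromosome 10 from 75943057 to 75949657) had FPKM of 74.6 and 80.4 in WT against 73.8 and 69.6 in Hnrnpf bKO. The groups almost touched, with 64.1 CPM in the lower WT library and 63.4 CPM in the higher Hnrnpf bKO library. The fitted log2 fold change was -0.10 (standard error 0.07, 95% interval from -0.26 to 0.05).

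Cd93 encodes the receptor recognised by the antibody AA4.1 and used to define transitional cells. It lies on chromosome 2 from 148436640 to 148443563 (ENSMUSG00000027435). Its counts were 138 and 222 in WT against 261 and 354 in Hnrnpf bKO, or 8.43 and 11.7 CPM against 16.6 and 19.6 CPM. Both Hnrnpf bKO libraries were above both WT libraries, and the WT libraries differed among themselves by less than the gap between the group means. The mean was 10.1 ± 2.34 CPM in WT against 18.1 ± 2.09 CPM in Hnrnpf bKO (mean ± SD, n = 2 each). From edgeR's fit, Cd93 was 1.80-fold higher in Hnrnpf bKO (95% interval from 1.42 to 2.29, log2 fold change 0.85, standard error 0.16). The fold change was lowest without the first WT library (log2 0.64) and highest without the second (log2 1.12). Cd93 mRNA was thus detected, at 1.26 to 2.93 FPKM, in bulk libraries of cells that had been sorted as CD93-. Which cells in these libraries made it was not tested.

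Sox4, a transcription factor gene of lymphoid progenitors, lies on chromosome 13 from 28948919 to 28953713 (ENSMUSG00000076431) and has a single exon. It had 144 and 255 counts in WT against 263 and 319 in Hnrnpf bKO. In CPM these were 8.80 and 13.5 against 16.8 and 17.6. The first WT library was the lowest, and the groups did not overlap. The mean was 11.1 ± 3.31 CPM in WT against 17.2 ± 0.63 CPM in Hnrnpf bKO (mean ± SD, n = 2 each), a fitted fold of 1.55 (95% interval from 1.20 to 1.99, log2 fold change 0.63, standard error 0.17). Without the first WT library the log2 fold change was 0.37, and without the second 0.98. On the opposite strand, the annotated lincRNA Gm26735 shares 2616 bases with the exon of Sox4, or 54.6% of it. Gm26735 had no entry among the genes counted, and without strand in the counting its reads and those of Sox4 cannot be told apart.

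Myb, which encodes the transcription factor c-Myb needed for early B cell progenitors, lies on chromosome 10 from 21124935 to 21160984 (ENSMUSG00000019982). Its counts were 134 and 200 in WT against 159 and 247 in Hnrnpf bKO. The levels were 8.19 and 10.6 CPM against 10.1 and 13.7 CPM, so that the groups overlapped. The log2 fold change was 0.35 (standard error 0.18, 95% interval from -0.04 to 0.75), and it ranged from 0.11 without the second Hnrnpf bKO library to 0.56 without the first. The antisense gene Gm26577 shares 559 exonic bases with Myb (6.26%) and had 0 or 1 count in a library.

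In the order of mean FPKM (Cd24a, Vpreb3, Sox4, Cd93, Myb, Vpreb1, Dntt, Rag1, then Rag2 and Igll1 at 0), the neighbours Sox4 and Cd93 overlapped in range over the 4 libraries, as did Cd93 and Myb. The ranges of Vpreb1 and Dntt and those of Dntt and Rag1 also overlapped. Cd24a, Vpreb3 and Sox4 were separate from each other, and so were Myb and Vpreb1.

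**Figure D2:**
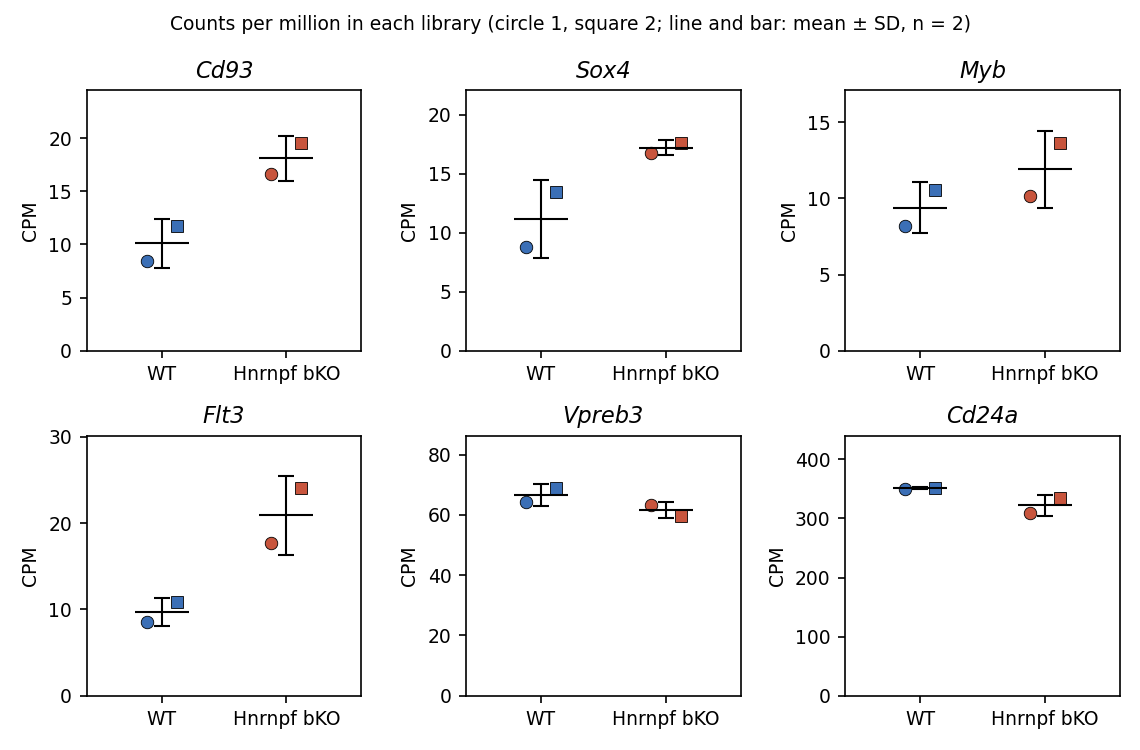
CPM of Cd93, Sox4, Myb, Vpreb3, Cd24a and the precursor gene Flt3 in each library, with the mean and SD of 2 libraries per genotype and each axis starting at 0. Flt3 is the only gene drawn from the list of other precursor genes. The 6 tested genes of that list had log2 fold changes from -0.43 (Spn) to 1.17 (Kit). Cd93 and Sox4 are higher in both Hnrnpf bKO libraries (16.6 to 19.6 CPM) than in WT (8.43 to 13.5 CPM), while Vpreb3 and Cd24a differ by a log2 fold change of about -0.1.

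The genes of recombination and of the surrogate light chain were nearly silent in both genotypes. Igll1 (ENSMUSG00000075370, chromosome 16) and Rag2 (ENSMUSG00000032864, chromosome 2) had 0 counts in all 4 libraries, which allows at most 3 counts in each, or 0.159 to 0.191 CPM. Rag1 (ENSMUSG00000061311), which faces Rag2 across a gap of 5752 bases, had 1 count in the first Hnrnpf bKO library and 0 in the others. The gene B230118H07Rik shares 208 exonic bases with Rag2 (6.07%) and 80 with Rag1 (1.21%), and had 3 to 7 counts in a library. Dntt (ENSMUSG00000025014, chromosome 19) had 2 and 5 counts in WT against 0 and 2 in Hnrnpf bKO, a ratio of 0.298 of Hnrnpf bKO to WT with an exact 95% interval from 0.0302 to 1.57. Vpreb1 (ENSMUSG00000059305), 4417 bases from Igll1, had 2 and 4 counts in WT against 3 and 8 in Hnrnpf bKO, a ratio of 1.91 with an interval from 0.649 to 6.30. Both intervals include 1 and cover counting error only, since copies of 1 molecule made by PCR could not be told apart here.

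Igll1, Rag2, Rag1, Dntt and Vpreb1 together gave 4 and 9 counts in WT against 4 and 10 in Hnrnpf bKO, or 0.244 and 0.476 against 0.255 and 0.553 CPM. At this depth no difference between the genotypes was detectable for them. Vpreb1 is uncertain for 2 more reasons. Its transcript is 97.4% identical over 759 bases to Vpreb2, which had 0 counts throughout, and 108 of its exonic bases (9.01%) are shared with Top3b, a topoisomerase gene on the opposite strand with 2043 to 2642 counts. The label of the list therefore holds in part, since the RAG, Dntt and surrogate light chain genes were close to absent while the other 5 genes were measured in every library.

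For the genotype comparison, edgeR's quasi-likelihood test was fitted to the 14123 genes left by its filter on low counts. Of the list, Cd93, Sox4, Myb, Vpreb3 and Cd24a entered the fit, and the other 5 were filtered out for low counts. Cd93 and Sox4, 2 of the 5, passed at an adjusted p of at most 0.05, both higher in Hnrnpf bKO. Over all tested genes 6.97% passed, 4.15% higher and 2.83% lower, and 6.62% of the 2959 genes with a mean of 100 to 400 counts did. None of the 5 (0) passed with a fold change of at least 2 in edgeR, where the background was 0.899%, and 2 had an unadjusted p of at most 0.05, where the background was 20.3%. Since the list was drawn up with this comparison in view, nothing is read from these counts. By DESeq2 only Cd93 passed, and by limma-trend on log2 FPKM 0 passed. The call of Sox4 was also lost without the first WT, the first Hnrnpf bKO or the second Hnrnpf bKO library.

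The median log2 fold change of these 5 genes was 0.35, against 0.00 over all tested genes, whose 5th and 95th percentiles were -0.53 and 0.61. Without 1 library at a time it lay between 0.11 (second Hnrnpf bKO library left out) and 0.56 (first left out). Both Hnrnpf bKO libraries lay outside the WT libraries for Cd93 and Sox4 upwards and for Vpreb3 and Cd24a downwards. Over all tested genes, 50.4% did not overlap between the genotypes in CPM, 23.5% upwards and 26.9% downwards.

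**Figure D3:**
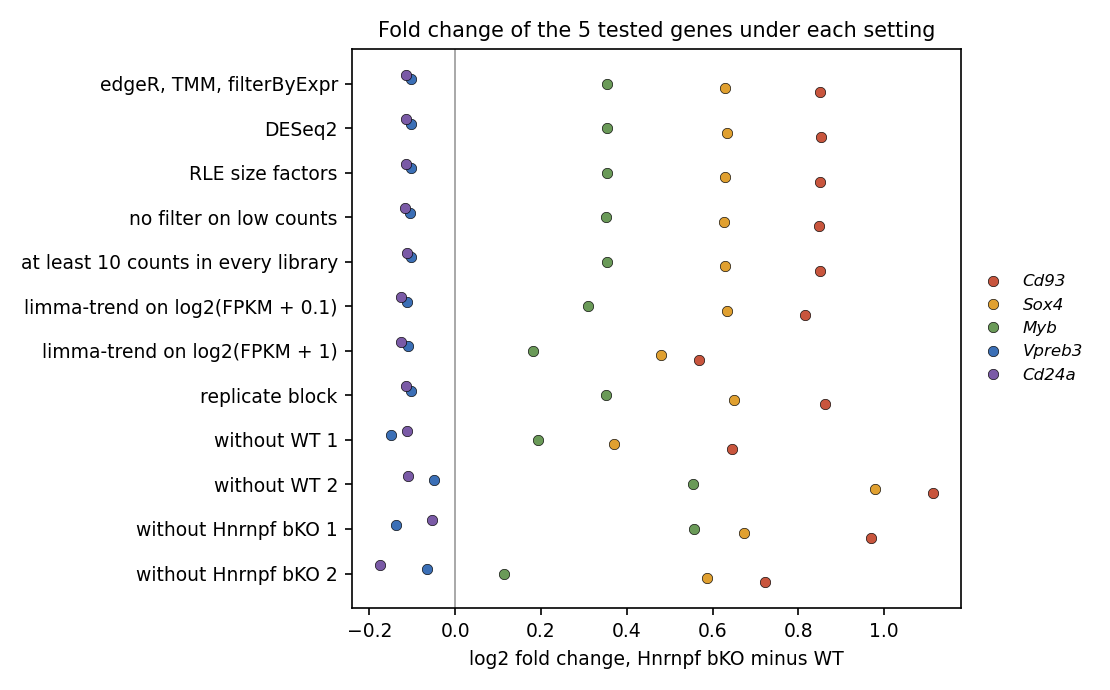
Log2 fold change (Hnrnpf bKO minus WT) of the 5 genes that entered the fit, under each of the settings named on the left. Cd93 (0.57 to 1.12) and Sox4 (0.37 to 0.98) are above 0 and Vpreb3 and Cd24a below 0 in every setting shown.

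In these bulk libraries, fewer cells of a type and less RNA per cell cannot be told apart. Markers of neutrophils, cells that can also carry CD93, moved in the same direction as Cd93 and Sox4. The summed level of the 7 neutrophil genes was 8.80 and 12.6 CPM in WT against 20.6 and 38.0 CPM in Hnrnpf bKO, and 3 of the 4 that entered the fit (S100a8, S100a9 and Ngp) passed edgeR's test, all higher. Ngp no longer passed without the second Hnrnpf bKO library, and none of the 4 (0) passed by limma-trend. Ly6g, which defines these cells, had 1 and 1 counts in WT against 1 and 13 in Hnrnpf bKO, and Elane and Mpo had at most 10. Without the second Hnrnpf bKO library, in which the neutrophil genes were highest, the log2 fold change of Cd93 was 0.72 and that of Sox4 0.59. In the same fit those of S100a8, S100a9, Ngp and Camp were 1.23, 0.93, 0.81 and 0.75. With all libraries these 4 were 1.53, 1.34, 1.48 and 1.44, and the fit without that library rests on a single Hnrnpf bKO library. The part of neutrophils in the differences of Cd93 and Sox4 was not tested.

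Of the marker lists of the remaining cell types, only the marginal zone gene Cd1d1 passed upwards in edgeR's test. The 7 macrophage and monocyte genes summed to 9.47 and 14.5 CPM in WT against 10.4 and 13.7 in Hnrnpf bKO, with Cd14 at 0 to 3 counts. Cd93 is also made by endothelial cells. Of the 4 endothelial genes listed, Kdr and Tek had at most 5 counts in a library and Cdh5 had 12 to 36. Pecam1, which B cells also express, had 265 to 327 CPM. The 4 genes summed to 325 and 329 CPM in WT against 298 and 266 in Hnrnpf bKO, and 0 passed edgeR's test, although the 95% interval of Pecam1 (log2 fold change from -0.32 to -0.08) lay below 0 before adjustment. T cell genes summed to 29.2 and 43.9 CPM in WT against 26.2 and 38.7 in Hnrnpf bKO.

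The other gene lists were also chosen with earlier results of these data known, so their adjusted p-values, taken over all tested genes, are no independent support for a list. Beside the calls below, 6.97% of all tested genes passed in edgeR, 4.15% higher and 2.83% lower. Among 10 other genes of precursor B cells, 6 entered the fit, 1 was higher and 1 was lower in Hnrnpf bKO. Flt3, the cytokine receptor of lymphoid progenitors, had 140 and 205 counts in WT against 277 and 436 in Hnrnpf bKO, or 8.56 and 10.8 CPM against 17.6 and 24.1 CPM. The groups did not overlap, and the log2 fold change was 1.12 (standard error 0.17), with an adjusted p = 0.00149 in the edgeR fit. Its adjusted p was 0.155 and 0.174 by limma-trend on log2(FPKM + 0.1) and log2(FPKM + 1), and at most 0.00142 under the other alternatives. Spn, which encodes CD43 of early B cells, was lower, with 34.0 and 39.2 CPM in WT against 26.6 and 27.2 in Hnrnpf bKO (log2 fold change -0.43 with a standard error of 0.09, edgeR adjusted p = 0.0144). Il7r, the receptor of interleukin-7, had a log2 fold change of -0.27 (standard error 0.24) and Lef1 one of 0.19 (standard error 0.19), neither past the test. Kit, the stem cell factor receptor, had 2 and 13 counts in WT against 12 and 20 in Hnrnpf bKO. Enpep, Erg and Cd34 had at most 2 counts in a library.

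The breaks made by RAG are closed by nonhomologous end joining, and its genes were measured throughout. Of 11 such genes and cofactors, all entered the fit, 0 were higher and 1 was lower in edgeR. That gene was Polm, the polymerase that fills in ends and is most similar to terminal transferase, with 117 and 111 CPM in WT against 96.1 and 83.5 in Hnrnpf bKO (log2 fold change -0.33 with a standard error of 0.07, edgeR adjusted p = 0.0135). The other 10 lay between log2 fold changes of -0.26 and 0.16.

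Of the 7 partners and adaptors of the pre-B cell receptor (Ighm, Cd79a, Cd79b, Syk, Blnk, Btk and Lyn), 0 passed in edgeR, although the 95% intervals of 2 (Cd79a and Cd79b) lay just above 0 before adjustment. Their log2 fold changes ran from -0.07 for Lyn to 0.11 for Cd79b. Among 11 B lineage transcription factors, Bach2 was higher and Ebf1 and Pax5, the factors that set B cell identity, were lower. Bach2 had a log2 fold change of 0.26 (standard error 0.05, edgeR adjusted p = 0.00627), Ebf1 one of -0.24 (standard error 0.06, edgeR adjusted p = 0.0421) and Pax5 one of -0.20 (standard error 0.05, edgeR adjusted p = 0.0261).

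The 11 genes listed for mature FOB cells split in direction, with 2 higher and 4 lower. Ighd, the heavy chain of IgD that rises with maturation, had a log2 fold change of 0.28 (standard error 0.05, edgeR adjusted p = 0.00451). Fcer2a, which encodes the sorting marker CD23, was higher by 0.22 on the log2 scale (adjusted p = 0.0180 from the same edgeR test). Cr2, which encodes the sorting marker CD21, had a log2 fold change of -0.47 (standard error 0.07, edgeR adjusted p = 0.00140). Tnfrsf13c, the BAFF receptor gene, and Ms4a1, the gene of CD20, had log2 fold changes of -0.37 and -0.29 (adjusted p = 7.13e-04 and 0.00240), and S1pr1 one of -0.29 (adjusted p = 0.0156). All 6 changes of this list were below a 2-fold difference. Of the 12 genes that passed among the precursor, end joining, pre-B cell receptor, transcription factor and FOB lists, 0 passed by limma-trend on log2 FPKM. In edgeR 6.97% of all tested genes passed, and nothing is read from the 12, since the lists were chosen with results known. DESeq2 called 12 genes of these lists.

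**Figure D4:**
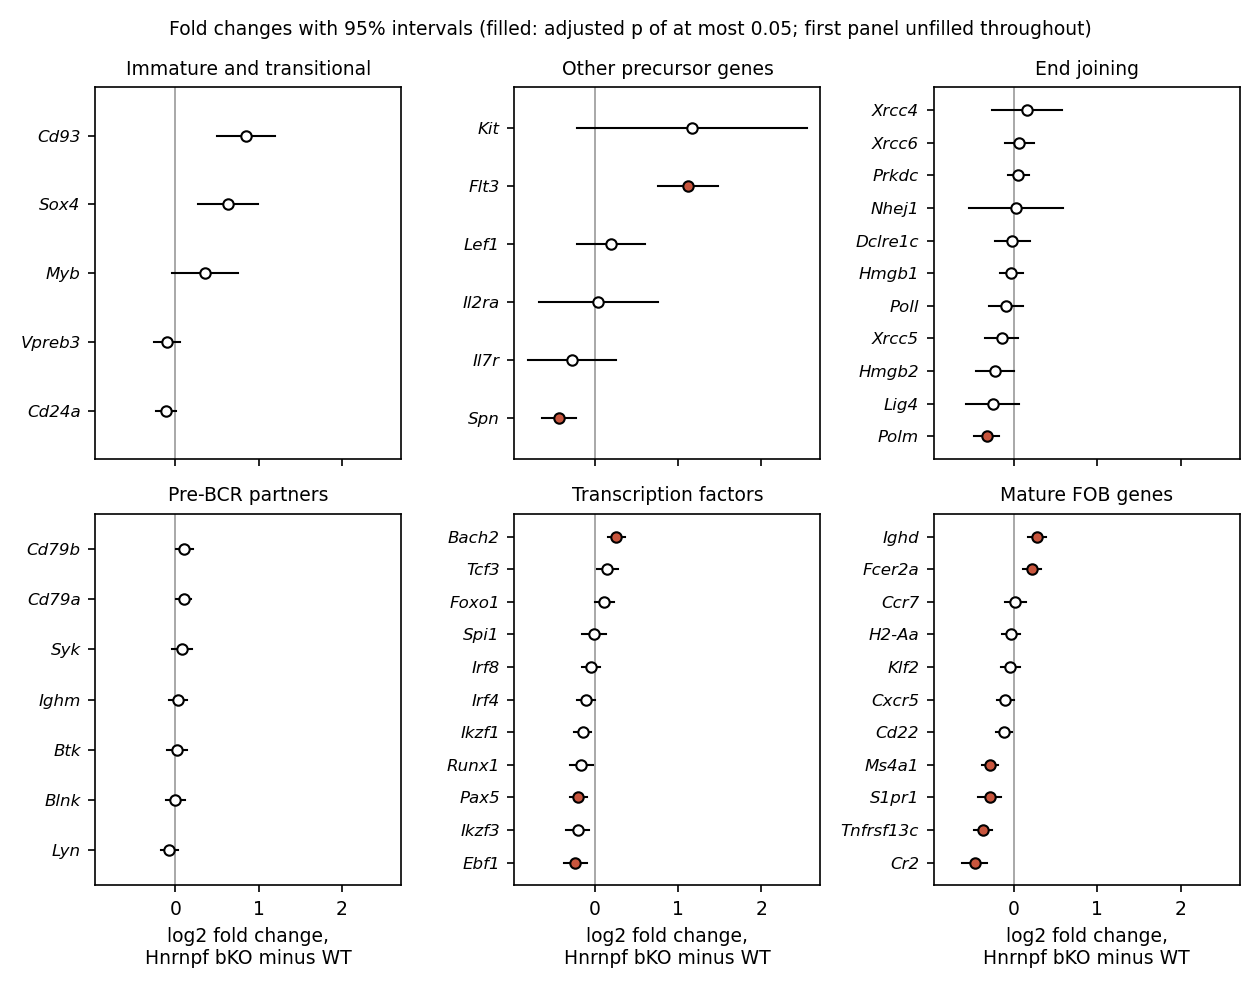
Log2 fold change (Hnrnpf bKO minus WT) with its 95% interval for every gene that entered the fit, in panels by list, where filled points passed at an adjusted p of at most 0.05 in edgeR's test and the first panel is left unfilled because its values are given as a description. Kit (1.17, 95% interval from -0.21 to 2.54), Flt3 (1.12), Cd93 (0.85), Sox4 (0.63) and Myb (0.35) lie to the right of the lower panels. The genes of the lower panels stay between -0.47 and 0.28 and had more counts than the genes just named. The panels of immature and of other precursor genes also hold Lef1 (0.19), Il2ra (0.04), Vpreb3 (-0.10), Cd24a (-0.11), Il7r (-0.27) and Spn (-0.43, filled).

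None of the 10 genes (0) was listed in the authors' table of altered splicing, which names 1556 events in 1173 genes and is a list of events they kept as altered. Of all tested genes that averaged 100 or more counts, 10.6% were named there, and 5 genes of the list reached that average. Sox4 has a single exon, and Cd93, Vpreb3 and Cd24a have 2 exons in each annotated transcript. There is thus little room for exon skipping in them, and their absence says little beside the 10.6%. Myb has annotated transcripts of 1 to 16 exons. Of the 97 genes of the other lists, 3 were named there (Fcer2a with 5 events, and Ikzf1 and Jchain with 1 each).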

How the data were processed

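Poly(A) RNA was sequenced from sorted FOB cells, with 2 libraries of WT mice and 2 of Hnrnpf bKO mice grouped by their labels. The authors trimmed reads with Cutadapt (1.9.1), aligned them to GRCm38 with HISAT2 (2.0.1) and counted them per gene with HTSeq (0.6.1), and the deposited counts are whole numbers without normalization. The strand setting and the annotation release are not given in the sources used here. The deposited FPKM were computed by the authors from counts, exonic gene size and library total. The authors' splicing table was made with rMATS turbo and holds their own FDR and inclusion differences, which were not used, and only its gene names were read.

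The 10 genes and the other lists were chosen with earlier results of these data known. All 10 genes are named, with Hnrnpf, genes that share sequence with them and, of each other list, up to 4 genes past the test by size of change and otherwise up to 2 of highest mean count. Genes outside this rule were named after their values were seen, among them Kit, Il7r, Lef1, Enpep, Erg, Cd34, Ighd, Fcer2a, Cdh5, Pecam1, Ly6g, Elane, Mpo, Cd14, Kdr, Tek and others of the marker lists. Some items are not reported here. Counts were compared in R 4.3.3 with edgeR 4.0.16 (TMM, filterByExpr, quasi-likelihood F test, Benjamini-Hochberg over 14123 genes, standard error as log2 fold change over the root of F), without a replicate term. Levels in CPM are counts scaled to the library total. The alternatives were DESeq2 1.42.0, RLE size factors, other filters, limma 3.58.1 (trend) on FPKM in log2 with a pseudocount of 0.1 or 1 where the average was 0.1 FPKM or more, a block for the replicate number, and each library left out. For 1 gene, the smallest two-sided p that an exact permutation of these 4 libraries allows is 0.333. Near-identical transcripts (at least 90% over 200 bases) were searched with blastn 2.17.0 in GENCODE M21, and promoters are RefSeq sequences of GRCm38.p6. Counts were also simulated for the comparison, with the same dispersion (0.00348) for every gene. On them edgeR recovered 85 of 100 genes changed by 1 on the log2 scale and 100 of 100 changed by 2. It made 7 false calls among 13908 genes tested. Since genes of the real data differ in dispersion, these figures do not give its error rates there.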

Additional observations from a re-analysis of the deposited data

How the results depend on the processing

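Genes that met both limits (adjusted p 0.05, 2-fold) numbered 91 higher and 36 lower in Hnrnpf bKO. They numbered 57 and 16 with DESeq2, 150 and 67 without a filter on low counts, 13 and 3 with limma-trend on log2(FPKM + 0.1), 12 and 1 on log2(FPKM + 1), and 586 and 399 without the fold change threshold. With 1 library left out at a time they ranged from 82 to 110 higher and from 28 to 56 lower (56 without the first Hnrnpf bKO library), with the lone library assumed to vary like the other group. Of the 5 tested genes of the list, 2 passed the adjusted p, 1 did with DESeq2 and 0 with both limma settings, and 1 or 2 did with a library left out. With the 2-fold threshold 0 passed, and 0 or 1 did with a library left out, the latter being Cd93 without the second WT library. The median log2 fold change of the list moved from 0.35 to 0.18 with limma-trend on log2(FPKM + 1), and ranged from 0.11 to 0.56 with a library left out. Of the other genes of the pathway and FOB cells, 12 passed in edgeR, where 6.97% of all tested genes did, against 0 with both limma settings. The 11 alternatives refit the libraries whose results were known when the list was drawn up, so they give it no independent support. No direction turned for the 5 genes under them. Cd93 kept its call in 9 of 11 and Sox4 in 5 of 11, and the causes were not tested.

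The replicate numbers of the labels do not show that libraries were paired, since deviations from the group means correlated at -0.07 between same-numbered libraries over 14123 genes. With the replicate number as a block, 71 genes were higher and 27 lower, the log2 fold change of Cd93 was 0.86 and that of Sox4 0.65, and 2 genes of the list passed the adjusted p. Ratios between genotypes in FPKM and CPM differed by less than the spread of the libraries. Depth limits Rag1, Rag2, Dntt, Igll1 and Vpreb1, each with at most 8 counts in a library.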

Other observations

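Genes of dividing cells, which large pre-B cells also express, varied between libraries of 1 genotype more than between the genotypes. Mki67 had 541 and 991 counts in WT against 788 and 422 in Hnrnpf bKO, and Top2a had 334 and 660 against 529 and 326. The summed level of Mki67, Top2a, Cdk1, Ccnb1 and Aurkb was 70.8 and 109 CPM in WT against 108 and 57.0 CPM in Hnrnpf bKO, and 0 of these 5 genes passed edgeR's test. Cd93 and Sox4 were both lowest in the first WT library and highest in the second Hnrnpf bKO library. The part of dividing cells in the differences of Cd93 and Sox4 was not tested.

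Genes of marginal zone B cells, the other mature subset of the spleen, moved in both directions, with Cd1d1 higher (log2 fold change 0.34, adjusted p = 0.0163 from edgeR's test) and Dtx1 and Cr2 lower (log2 fold changes -0.23 and -0.47). The plasma cell genes Sdc1, Prdm1, Xbp1 and Jchain did not pass, with a summed level of 95.5 and 115 CPM in WT against 111 and 103 CPM in Hnrnpf bKO. Erythroid genes summed to 4.58 and 3.54 CPM in WT against 3.95 and 2.38 in Hnrnpf bKO, and genes of megakaryocytes and platelets to 3.36 and 3.86 against 2.61 and 1.99 CPM, without a call.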
